A study of Mus musculus with 16 samples.

Results

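The cell cycle and DNA replication genes described here are 36 genes chosen by symbol. They comprise 12 genes of DNA replication, 20 genes of mitosis and 4 genes of G1 control, out of 16593 genes with a symbol on the array. Liver RNA of single mice was measured on Illumina mouse BeadChips, with 1 array per mouse and 4 mice per group. The groups were SHP-/- mice on a western diet (KO western), wild type mice on a western diet (WT western), SHP-/- mice on chow (KO chow) and wild type mice on chow (WT chow). All 16 mice were males of the strain C57Bl/6Hsd, aged 10 months, with livers taken after an overnight fast. The western diet began at the age of 4 months and lasted 6 months. The labels do not state how the SHP allele was made or whether mice were littermates. SHP, the product of Nr0b2, is an orphan nuclear receptor that binds other receptors, dampens transcription and is known in liver for limiting bile acid synthesis. The single Nr0b2 probe was detected in 0 of 16 arrays (lowest detection p 0.227), wild type livers included, so it gives no check of the genotype labels.

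Cells license replication origins in G1 by loading the MCM helicase, and D-type cyclins with their kinases release E2F factors that switch on the genes of DNA synthesis. A second wave, controlled through the CHR element by the DREAM and MuvB complexes, brings the kinases, spindle proteins and cytokinesis factors of mitosis. Adult hepatocytes divide rarely, and a liver sample also holds macrophages, stellate and endothelial cells, which can divide too. Cdkn1a (p21) is an inhibitor of cyclin-dependent kinases and a target of p53.

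WT western livers stood apart from the other groups beyond the cell cycle genes. The share of probes detected was 45.0% to 47.3% in KO western, 48.8% to 51.1% in WT western, 44.8% to 46.9% in KO chow and 43.6% to 46.6% in WT chow arrays. Over all genes tested, 11% were lower and 8.82% higher in KO western than in WT western livers. In WT western against WT chow livers, 15.5% of all genes were higher and 14.1% lower. Of 13 tested macrophage and Kupffer cell markers, 12 were lower in KO western than in WT western livers, and 12 were higher in WT western than in WT chow livers. Their summed linear signal was 3478 to 4286 in KO western, 8258 to 15827 in WT western, 2812 to 3652 in KO chow and 2762 to 4103 in WT chow livers, and of the listed markers with a probe Cd5l was detected in no array. Of 10 stellate cell and fibroblast markers, 5 were lower in KO western than in WT western livers and 6 were higher in WT western than in WT chow livers. Their summed signal was 3041 to 4021 in KO western, 4913 to 6440 in WT western, 3199 to 3821 in KO chow and 2966 to 3730 in WT chow livers. The summed signal of the hepatocyte markers overlapped between the groups, at 75642 to 88622 in KO western, 81050 to 86885 in WT western, 81613 to 88339 in KO chow and 76601 to 94931 in WT chow livers. Of the 5 tested hepatocyte markers, 1 was higher in KO western than in WT western livers and 2 were lower in WT western than in WT chow livers. Of the tested markers of other cells, 0 of 7 lymphocyte, 0 of 3 neutrophil and 1 of 7 endothelial markers were lower in KO western than in WT western livers. Between WT western and WT chow livers, 2 of 3 neutrophil markers were higher, 2 of 7 endothelial markers were higher and 1 lower, and 0 of 7 lymphocyte markers passed. The summed neutrophil signal was 786 in WT western replicate 2 and 202 to 338 in the other WT western livers, against 104 to 201 in WT chow livers. The part of these markers in the results below was not tested. In whole liver, a change in the number of cells of a type and a change in RNA per cell cannot be told apart.

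Promoters of some members that changed are shown for the motifs of both waves, selected so that each holds a motif of its own wave. RefSeq promoter windows (GRCm38.p6) from 250 bases before to 50 after the transcription start were at hand for 30 members, in 33 windows. Motifs were searched on both strands, as 4 E2F words (TTTCCCGC, TTTGGCGC, TTTCGCGC, TTTGCCGC), CHR words (TTTGAA or its variant TTCGAA) and the CCAAT box. E2F and CHR matches are in capitals in the 250 bases before the start, written on the strand of the gene. Mcm6 and Mcm5, subunits of the replicative helicase, are at chr1:128359706-128359955 (minus strand) and chr8:75109259-75109508 (plus strand). Cdk1, the kinase of mitotic entry, is at chr10:69352913-69353162 (minus strand). Top2a, the topoisomerase that untangles sister chromatids, is at chr11:99024190-99024439 (minus strand). Prc1, which bundles the microtubules of the central spindle, is at chr7:80294226-80294475 (plus strand), with a second annotated start nearby.
Mcm6: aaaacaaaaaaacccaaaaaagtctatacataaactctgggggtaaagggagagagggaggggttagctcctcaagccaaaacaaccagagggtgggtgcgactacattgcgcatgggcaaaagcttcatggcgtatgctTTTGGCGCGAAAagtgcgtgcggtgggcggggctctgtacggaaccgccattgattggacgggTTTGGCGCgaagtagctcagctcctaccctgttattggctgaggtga
Mcm5: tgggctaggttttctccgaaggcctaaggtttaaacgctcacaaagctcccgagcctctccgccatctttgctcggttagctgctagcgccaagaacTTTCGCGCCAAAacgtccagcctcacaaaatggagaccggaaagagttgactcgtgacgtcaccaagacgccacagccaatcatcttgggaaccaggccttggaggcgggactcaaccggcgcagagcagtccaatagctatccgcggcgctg
Cdk1: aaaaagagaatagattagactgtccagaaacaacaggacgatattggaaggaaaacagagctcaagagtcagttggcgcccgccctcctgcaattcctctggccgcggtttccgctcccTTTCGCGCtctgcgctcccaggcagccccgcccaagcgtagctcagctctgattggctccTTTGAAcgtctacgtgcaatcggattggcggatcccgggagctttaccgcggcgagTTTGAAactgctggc
Top2a: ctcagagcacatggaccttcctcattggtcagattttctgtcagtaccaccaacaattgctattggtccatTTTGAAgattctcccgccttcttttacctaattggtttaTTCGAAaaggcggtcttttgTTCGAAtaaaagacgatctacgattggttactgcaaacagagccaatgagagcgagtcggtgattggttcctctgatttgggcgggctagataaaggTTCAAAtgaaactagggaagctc
Prc1: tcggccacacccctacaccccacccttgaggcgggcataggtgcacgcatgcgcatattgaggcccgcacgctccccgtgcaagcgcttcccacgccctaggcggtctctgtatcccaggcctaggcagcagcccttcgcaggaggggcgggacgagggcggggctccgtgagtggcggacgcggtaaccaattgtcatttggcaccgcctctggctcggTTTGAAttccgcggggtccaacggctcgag

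The capitals in Mcm6 and Mcm5 are E2F words, with overlapping matches on opposite strands in each (TTTGGCGCGAAA and TTTCGCGCCAAA). Cdk1 held 1 E2F word and 2 CHR words, Top2a held 4 CHR words, and Prc1 held 1 CHR word 30 bases before the start. Over all 33 member windows the 2 motifs fell on different classes. E2F words were in 5 of 12 replication windows (41.7%) and in 1 of 18 mitosis windows (5.56%), against 2.26% of all 32851 promoter windows. CHR words were in 15 of 18 mitosis windows (83.3%) and in 2 of 12 replication windows (16.7%), against 19.2% of all windows. The CCAAT box was in 16 of 18 mitosis windows and in 9 of 12 replication windows, against 37.4% of all windows. Nusap1, Tk1, Tyms, Birc5, Ccne1 and Cdkn1a had none of the 3 motifs in this window. Mcm2 had 0 E2F words and 1 CHR word. Of the 10 windows of members called higher with western diet in wild type livers, 3 held E2F words and 7 held CHR words. A match is a description of the letters and no evidence that a factor binds there.

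Most mitosis genes were at the limit of detection in these livers. A probe was named for 32 of the 36 members, 60 probes in all. No probe was named for Ccnb1, Mki67, Aurkb and Racgap1. A gene was tested where 4 or more arrays had its probe detected (detection p under 0.05), which 23 members passed, 11 of replication, 10 of mitosis and 2 of G1 control. Of the 9 members below that limit, Ccne2, Ccna2, Ccnb2, Bub1, Ube2c, Kif11 and Kif20a were detected in no array. Ccne1 was detected in 3 arrays and the brighter Rrm2 probe in 2 arrays. The limit held for each probe alone. With either of its 2 probes Rrm2 was detected in 2 KO western, 1 WT western, 1 KO chow and 0 WT chow arrays.

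Among the 10 tested mitosis members, 40.0% of the values were detected in KO western, 87.5% in WT western, 30.0% in KO chow and 12.5% in WT chow arrays. Among the 11 tested replication members the shares were 70.5% in KO western, 90.9% in WT western, 70.5% in KO chow and 59.1% in WT chow arrays. These shares are a description, because 8 tested members (Mcm3, Cdc6, Cdk1, Plk1, Top2a, Bub1b, Cdc20 and Nusap1) reached 4 detected arrays only with the WT western arrays. Such genes entered the test through the group where they were high. The other 15 members passed without that group.

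**Figure D1:**
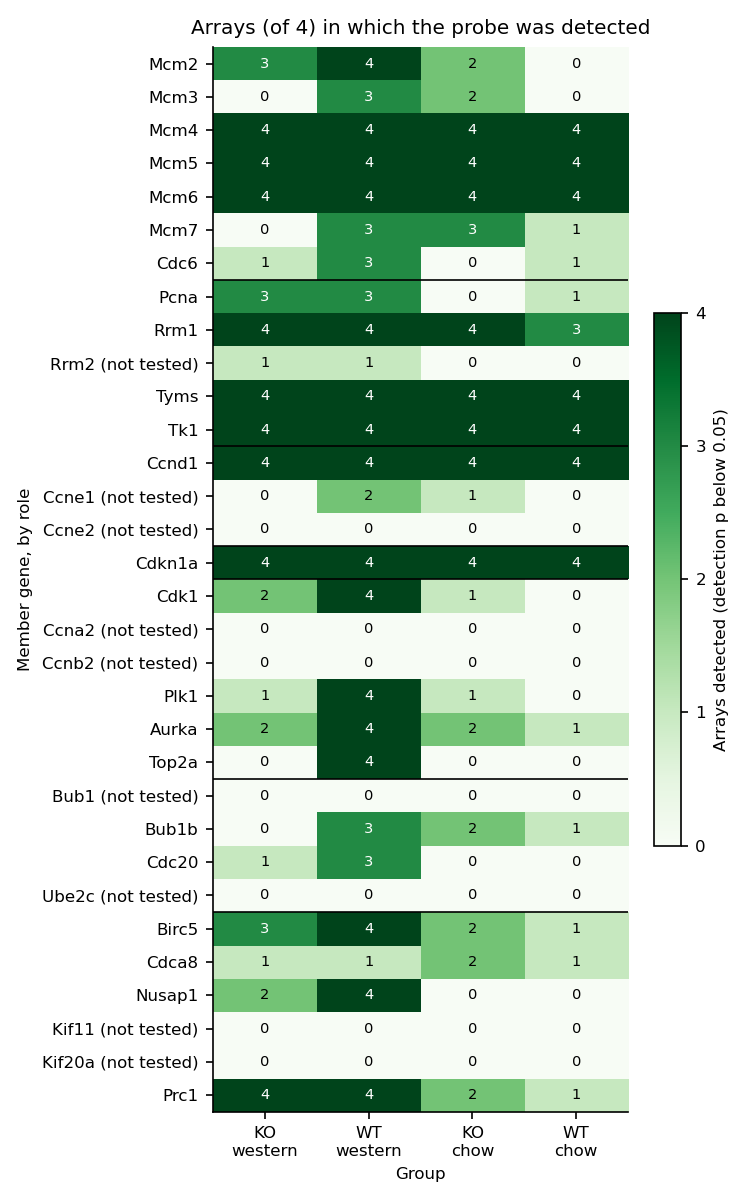
Number of arrays, of 4 per group, in which the brightest probe of each member was detected, for the 32 members with a probe, ordered by role with lines between roles. Mcm4, Mcm5, Mcm6, Tyms, Tk1, Ccnd1 and Cdkn1a were detected in all 16 arrays, while Top2a was detected in the 4 WT western arrays and in no other.

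On the western diet, 7 members were lower in KO than in WT livers and 1 was higher, by limma with Benjamini-Hochberg adjustment over 9095 genes. Over all genes tested, 11% were lower and 8.82% higher in this comparison. The lower members were the helicase subunits Mcm5 and Mcm6, the G1 cyclin Ccnd1 and the mitosis genes Cdk1, Top2a, Nusap1 and Prc1. The higher one was Tk1, thymidine kinase of the salvage pathway. The median log2 difference was -0.07 over the 11 tested replication members and 0.03 over all genes. Among the 15 members that passed the detection limit without WT western arrays, 1 was higher and 4 were lower (Mcm5, Mcm6, Ccnd1 and Prc1). Values below are log2 of the background-corrected and quantile-normalised signal plus 16, so that fold changes of dim genes are understated.

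Ccnd1, the D-type cyclin that drives the G1 kinases, had the largest difference of the 23 tested members in this comparison. Its log2 signal was 7.53, 7.82, 8.30 and 7.52 in KO western livers, against 9.24, 10.46, 10.01 and 9.10 in WT western livers. Every KO value lay below every WT value. The difference was -1.91 ± 0.24 (log2 ± SE), 3.76-fold lower in KO livers (limma adjusted p = 1.95e-05). The other 2 detected Ccnd1 probes gave differences of -1.85 and -1.74.

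Of the helicase and licensing genes, 2 of 7 were lower and 0 were higher in KO western livers. Mcm6 had a log2 signal of 5.38, 5.09, 5.50 and 6.38 in KO western livers, against 6.12, 6.79, 6.13 and 6.31 in WT western livers. The groups overlapped, because KO replicate 4 lay above 3 of the WT livers. The difference was -0.75 ± 0.21 (limma adjusted p = 0.0156), with -0.53 and -0.54 at the other Mcm6 probes. Mcm5 had 5.19, 5.21, 5.21 and 5.45 in KO western livers, against 5.82, 6.41, 5.82 and 5.52 in WT western livers, with no overlap. Its difference was -0.63 ± 0.18 (limma adjusted p = 0.0160). Neither call held without WT western replicate 2. The difference was then -0.45 for Mcm5 (limma adjusted p = 0.0703) and -0.60 for Mcm6 (limma adjusted p = 0.0665), with fewer mice in the fit. The Mcm6 call was also lost without KO western replicate 2 and in a fit of the 2 groups alone. Mcm2 (-0.38), Mcm4 (-0.07) and Cdc6 (-0.02) did not pass, nor did Mcm3 and Mcm7, which were not detected in any KO western liver.

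Of the 4 tested genes of the fork and of nucleotide supply, 1 was higher in KO western livers. Tk1 had a log2 signal of 8.41, 8.38, 8.92 and 8.73 in KO western livers, against 7.53, 7.51, 7.51 and 7.86 in WT western livers. All 4 KO livers lay above all 4 WT livers. The difference was 1.01 ± 0.24, 2.01-fold higher in KO livers (limma adjusted p = 0.00501). The other detected Tk1 probes differed by 0.61 and 0.88 in the same direction. On chow Tk1 had 7.85, 8.03, 8.70 and 7.89 in KO livers, against 7.17, 8.25, 7.60 and 8.54 in WT livers, which overlapped. Pcna, the sliding clamp, differed by 0.35, Rrm1, the large subunit of ribonucleotide reductase, by -0.04, and Tyms, thymidylate synthase, by 0.15, and these 3 did not pass.

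Of the 10 tested mitosis members, 4 were lower in KO western livers. Of these, Cdk1, Top2a and Nusap1 passed the detection limit only with the WT western arrays, and Prc1 was the 1 called among the 4 mitosis members that passed without them. Prc1 had a log2 signal of 4.86, 4.96, 5.29 and 5.12 in KO western livers, against 5.63, 6.33, 5.83 and 5.49 in WT western livers. The groups did not overlap, and the difference was -0.76 ± 0.17, 1.69-fold lower in KO livers (limma adjusted p = 0.00275). Nusap1, a microtubule-binding protein of the spindle, had 4.92, 4.85, 4.65 and 4.56 in KO western livers, against 5.05, 5.38, 5.24 and 5.27 in WT western livers. It differed by -0.49 ± 0.13 (limma adjusted p = 0.0110) without overlap. Top2a was not detected in any KO western liver, at 4.64, 4.35, 4.49 and 4.46, and was detected in every WT western liver, at 4.84, 5.36, 4.82 and 4.90. It was at least 1.19-fold lower in KO livers, set against the dimmest detected signals (limma adjusted p = 0.00960). With the authors' own normalised values cut at a floor of 16 the Top2a call was lost.

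Cdk1 had a log2 signal of 4.35, 4.50, 4.91 and 4.81 in KO western livers, against 5.24, 5.42, 5.34 and 5.0 in WT western livers. The groups did not overlap and the difference was -0.61 ± 0.15 (limma adjusted p = 0.00619). A second Cdk1 probe, detected in 4 arrays, differed by 0.20 here and by 0.08 with diet in wild type livers, and the call between KO and WT livers was lost with the mean of both probes. Plk1 (-0.35), Aurka (-0.29), Cdc20 (-0.40), Birc5 (-0.11) and Cdca8 (-0.06) did not pass, nor did Bub1b, which was not detected in any KO western liver. Of the 23 tested members, 7 did not overlap between KO western and WT western livers, namely the called ones other than Mcm6, against 21.2% of all genes. Among these 7, Cdk1, Top2a and Nusap1 passed the detection limit only with the WT western arrays.

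**Figure D2:**
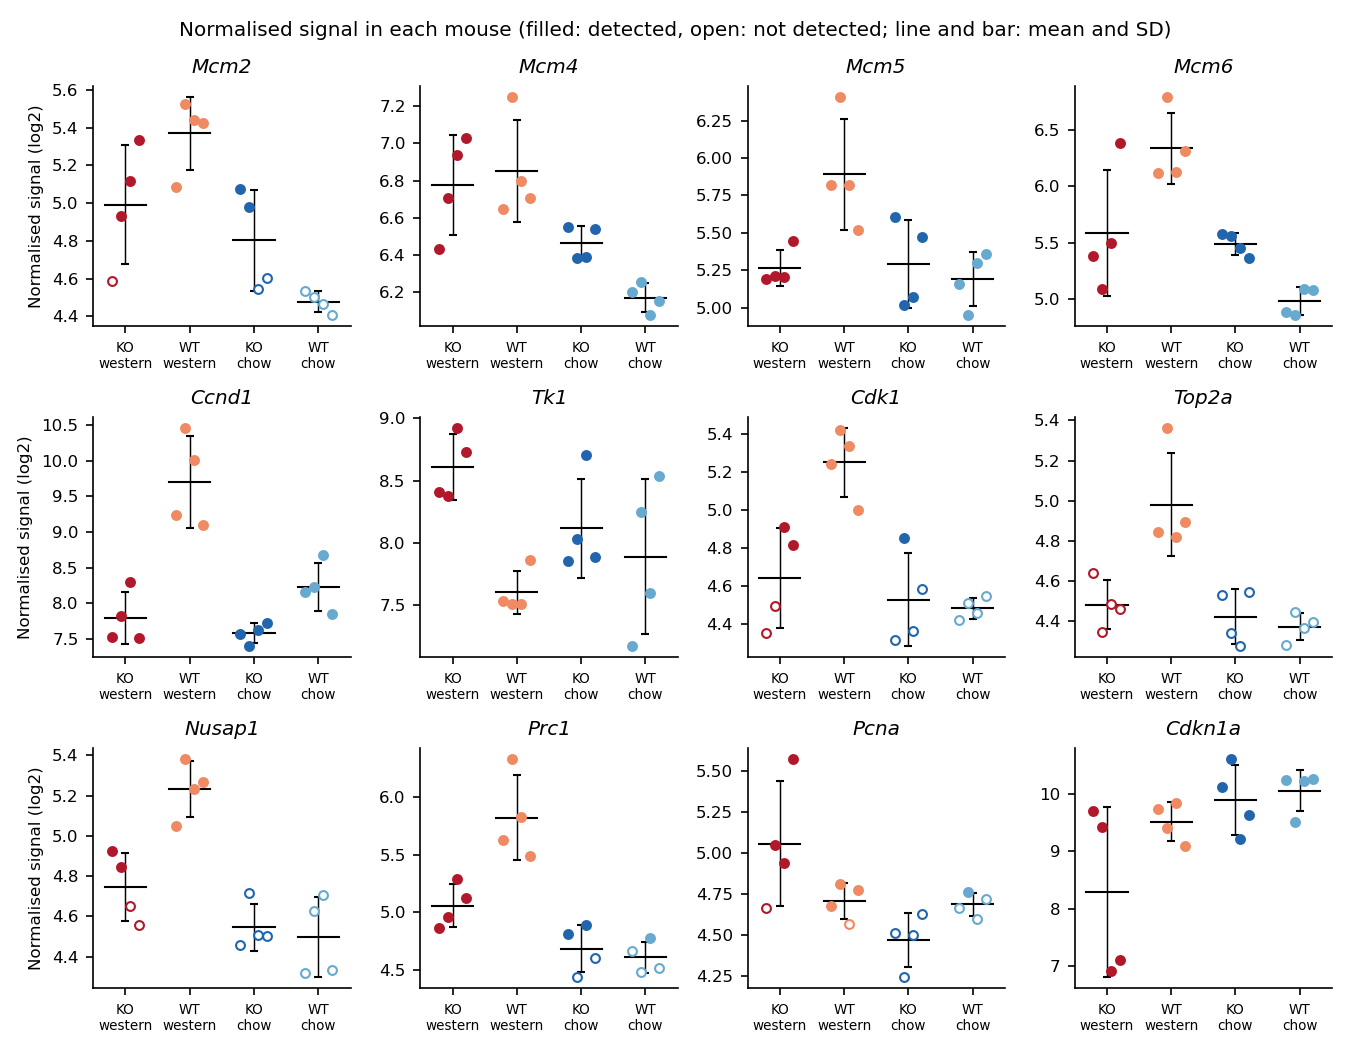
Normalised log2 signal in each mouse (points, 4 per group) with the group mean (line) and SD (bar) for 12 of the 14 members that passed in some comparison (Plk1 and Cdc20 are not drawn); open points were not detected, and the vertical axes differ between panels. Ccnd1 sat between 9.10 and 10.46 in WT western livers and between 7.52 and 8.30 in KO western livers, and Cdkn1a was low in 2 of the 4 KO western livers.

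On chow, 0 of the 23 tested members passed between KO and WT livers by limma, where 0.836% of all genes did. Without adjustment 3 of the 23 members had a p under 0.05, against 972 of all 9095 genes tested. After adjustment 0 members passed in each of the 12 other processing settings. The members with an unadjusted p below 0.05 were Ccnd1, Mcm6 and Cdc6, with differences of -0.65 ± 0.24, 0.51 ± 0.21 and -0.34 ± 0.14. The other 2 detected Mcm6 probes differed by 0.11 and 0.05. Ccnd1 had a log2 signal of 7.57, 7.39, 7.63 and 7.72 in KO chow livers, against 8.16, 8.22, 8.67 and 7.85 in WT chow livers, which did not overlap (limma adjusted p = 0.288). Mcm2, Mcm4, Mcm6 and Cdc6 did not overlap either, which made 5 of 23 members, against 6.52% of all genes. Of these, Cdc6 was detected in 0 of 4 KO chow and 1 of 4 WT chow arrays. Mcm2 was detected in 2 KO chow and 0 WT chow arrays, and its lowest KO value (4.55) was close to its highest WT value (4.54). Mcm2 had 5.08, 4.98, 4.55 and 4.60 in KO chow livers, and Mcm4 had 6.55, 6.38, 6.39 and 6.54, all above the WT chow values given below. The mitosis genes Cdk1 (4.32, 4.85, 4.36 and 4.59), Top2a (4.53, 4.34, 4.28 and 4.54), Nusap1 (4.46, 4.72, 4.51 and 4.50), Plk1 (4.44, 4.79, 4.52 and 4.33) and Cdc20 (4.36, 4.56, 4.53 and 4.42) were each detected in 0 or 1 of the 4 KO chow livers. The median difference was 0.18 over the 11 tested replication members and 0.01 over all genes.

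In wild type mice, 11 members were higher on the western diet than on chow and 0 were lower by limma. Over all genes 15.5% were higher and 14.1% lower. The higher ones were 4 helicase subunits (Mcm2, Mcm4, Mcm5 and Mcm6), Ccnd1 and 6 mitosis genes (Cdk1, Plk1, Top2a, Cdc20, Nusap1 and Prc1). Among the 15 members that passed the detection limit without WT western arrays, 6 were higher, namely the 4 helicase subunits, Ccnd1 and Prc1. In a separate fit with no detection limit, 11 of 32 members were higher. The shares of all genes above do not apply to that fit, and its own share is not given here. All 7 members that were lower in KO western livers were among the 11 (63.6% of them), and both comparisons use the same 4 WT western arrays.

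The helicase subunits Mcm6, Mcm2, Mcm4 and Mcm5 were separated between the diets in every wild type mouse. Mcm6 had the log2 signals given above in WT western livers, against 4.89, 4.85, 5.09 and 5.08 in WT chow livers, a change of 1.36 ± 0.21 or 2.57-fold (limma adjusted p = 8.48e-05). Mcm2 had 5.09, 5.52, 5.44 and 5.42 in WT western livers, against 4.54, 4.50, 4.46 and 4.40 in WT chow livers, where it was not detected. It was at least 1.52-fold higher on the western diet (limma adjusted p = 0.000356). In KO western livers Mcm2 had 4.59, 4.93, 5.12 and 5.34, which overlapped the WT western livers. Mcm4 had 6.65, 7.25, 6.80 and 6.71 in WT western livers, against 6.20, 6.25, 6.07 and 6.15 in WT chow livers, a change of 0.68 ± 0.14 (limma adjusted p = 0.00146). KO western livers had 6.43, 6.70, 6.94 and 7.03 for Mcm4, within the range of WT western livers but for the lowest. Mcm5 changed by 0.70 ± 0.18, with 5.16, 4.95, 5.30 and 5.36 in WT chow livers and 5.61, 5.02, 5.07 and 5.47 in KO chow livers (limma adjusted p = 0.00541). Mcm7, which had 4.73, 4.67, 4.93 and 4.39 in WT western livers against 4.65, 5.10, 4.37 and 4.66 in WT chow livers, overlapped and did not pass.

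Ccnd1 was 2.78-fold higher on the western diet in wild type livers, a change of 1.48 ± 0.24 without overlap (limma adjusted p = 0.000160). Prc1 had 4.66, 4.48, 4.78 and 4.52 in WT chow livers, all below the WT western livers, and changed by 1.21 ± 0.17 or 2.31-fold (limma adjusted p = 2.51e-05). The other called mitosis genes were not detected in any WT chow liver, so each fold is a lower bound. WT chow livers had 4.42, 4.51, 4.46 and 4.55 for Cdk1, 4.28, 4.45, 4.37 and 4.40 for Top2a and 4.32, 4.63, 4.71 and 4.33 for Nusap1. All of these lay below the WT western livers. Cdk1 was at least 1.40-fold, Nusap1 at least 1.38-fold, Cdc20 at least 1.20-fold, Plk1 at least 1.19-fold and Top2a at least 1.16-fold higher on the western diet.

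Plk1, a kinase of mitotic entry and spindle assembly, had a log2 signal of 5.19, 5.01, 4.92 and 4.96 in WT western livers, against 4.80, 4.46, 4.34 and 4.55 in WT chow livers (limma adjusted p = 0.0152). Its groups did not overlap. Cdc20, an activator of the anaphase-promoting complex, had 4.89, 5.76, 4.94 and 4.53 in WT western livers, against 4.45, 4.50, 4.62 and 4.49 in WT chow livers, and overlapped (limma adjusted p = 0.0365). Of the 23 tested members, 10 did not overlap, namely the called ones other than Cdc20, against 29% of all genes. Among them Cdk1, Plk1, Top2a and Nusap1 passed the detection limit only with the WT western arrays. WT western replicate 2 had the highest value of all 16 arrays in 10 of the 11 called members. Replicate 1 had it in the other, Plk1. WT western replicate 2 also had the highest summed macrophage signal (15827), the highest summed neutrophil signal (786) and the highest share of probes detected (51.1%). The summed stellate cell and fibroblast signal was highest in WT western replicate 3, at 6440 against 6411 in replicate 2. Without WT western replicate 2, 10 of the 11 still passed, and Cdc20 did not (limma adjusted p = 0.139). The Cdc20 call was lost in 5 of 16 fits that leave out 1 array, and the Plk1 call in 2, those without WT western replicate 1 or WT chow replicate 3. With the authors' own normalised values cut at a floor of 16, the Plk1, Cdc20 and Top2a calls were lost. In KO western livers Plk1 had 4.70, 4.70, 4.92 and 4.36, and Cdc20 had 4.47, 4.78, 4.72 and 4.59.

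**Figure D3:**
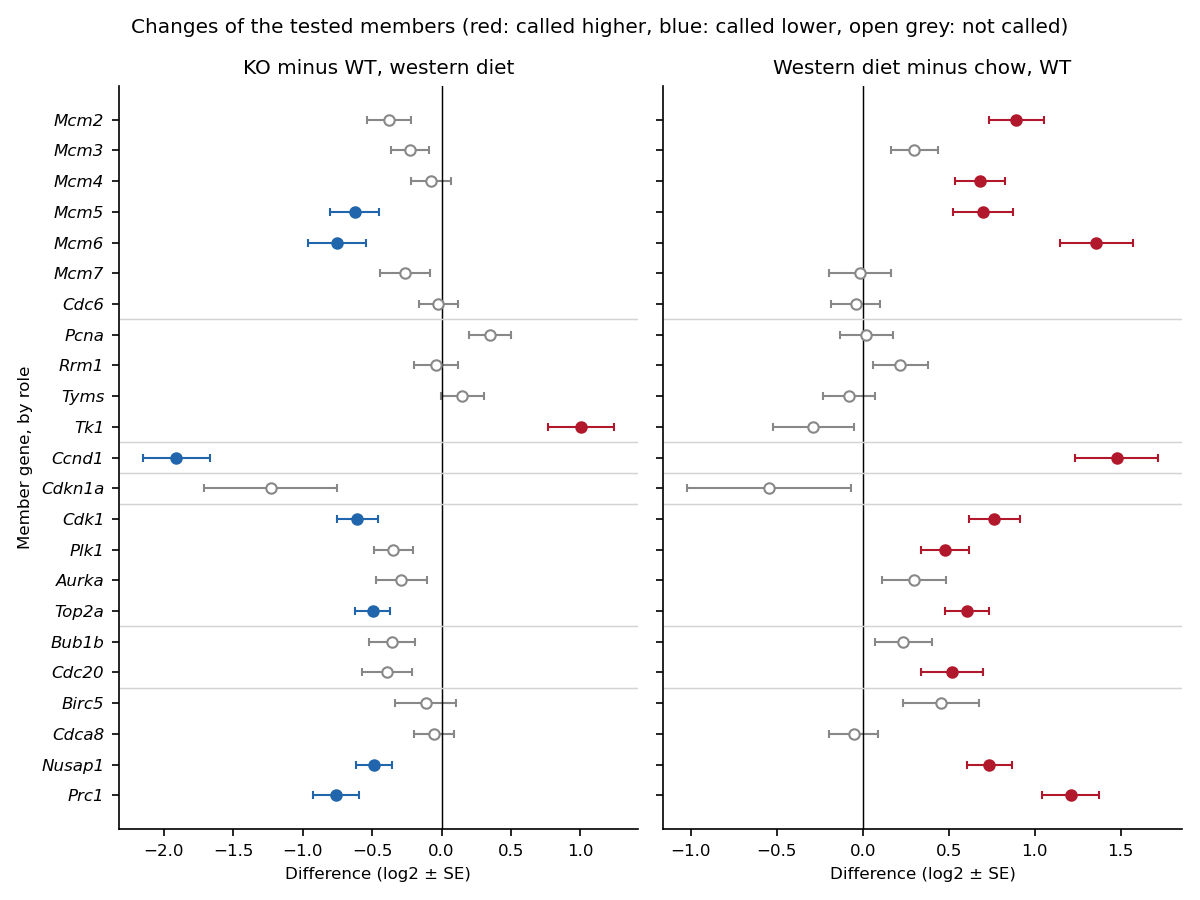
Log2 difference with its SE for the 23 tested members, ordered by role, between KO and WT livers on the western diet (left) and between western diet and chow in WT livers (right). Helicase, cyclin and mitosis genes lie mostly left of 0 in the left panel and right of 0 in the right panel. The 2 panels share the WT western arrays. Mcm3, Cdc6, Cdk1, Plk1, Top2a, Bub1b, Cdc20 and Nusap1 passed the detection limit only with those arrays, so the direction of these 8 is a description only. Tk1 is at 1.01 in the left panel.

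In SHP-/- mice 1 member was higher and 1 was lower on the western diet than on chow by limma, where 4.52% of all genes were higher and 3.36% lower. The higher one was Pcna, with 4.66, 5.05, 4.94 and 5.57 in KO western livers, against 4.51, 4.24, 4.50 and 4.63 in KO chow livers, where it was not detected. The groups did not overlap, and wild type livers had 4.67, 4.81, 4.56 and 4.78 on the western diet and 4.67, 4.76, 4.60 and 4.72 on chow. Pcna was at least 1.23-fold higher on the western diet (limma adjusted p = 0.0246). The lower one was Cdkn1a, with 9.71, 9.43, 6.91 and 7.10 in KO western livers, against 10.12, 10.62, 9.22 and 9.64 in KO chow livers. KO western replicates 3 and 4 lay far below the other KO western livers, and replicates 1 and 2 lay within the range of KO chow livers. Wild type livers had 9.73, 9.41, 9.84 and 9.09 on the western diet, against 10.24, 9.52, 10.22 and 10.27 on chow. The change was -1.61 ± 0.48 (limma adjusted p = 0.0450), and all 3 detected Cdkn1a probes gave negative changes of -1.61, -1.89 and -1.40. Without KO western replicate 3 it was -1.15 and without replicate 4 it was -1.22, and neither passed. The Cdkn1a call was lost in 11 of the 16 fits that leave out 1 array and in 6 of the 12 other processing settings. The Pcna call was lost without KO chow replicate 2, KO western replicate 2 or KO western replicate 4.

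The diet effect differed between the genotypes in 3 members by the interaction test in limma, all with a smaller change in KO livers, and 0 members went the other way. Over all genes 4.76% had a lower and 2.29% a higher diet effect in KO livers. Mcm6, with 5.57, 5.56, 5.45 and 5.37 in KO chow livers, changed with diet by 0.10 in KO and by 1.36 in WT livers, a difference of -1.26 ± 0.30 (limma adjusted p = 0.0146). The other 2 detected Mcm6 probes gave -0.64 (limma adjusted p = 0.223) and -0.59 (0.102) and were not called. Ccnd1 changed by 0.21 in KO and by 1.48 in WT livers, a difference of -1.26 ± 0.34 (limma adjusted p = 0.0318). Prc1, with 4.81, 4.44, 4.89 and 4.60 in KO chow livers, changed by 0.37 in KO and by 1.21 in WT livers, a difference of -0.84 ± 0.23 (limma adjusted p = 0.0357). Without WT western replicate 2 the adjusted p was 0.0326 for Mcm6, 0.0578 for Ccnd1 and 0.0705 for Prc1, which left 1 call. Leaving out each of the 16 arrays in turn ended the Ccnd1 call in 9 fits, the Prc1 call in 11 fits and the Mcm6 call in 0 fits. The difference was not called for Mcm2, Mcm5, Cdk1, Top2a and Nusap1 (limma adjusted p between 0.0662 and 0.0841), of which all but Mcm5 were not detected in any WT chow liver.

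The counts of the replication and mitosis classes cannot be set against each other, because 6 of the 10 tested mitosis members and 2 of the 11 tested replication members passed the detection limit only with the WT western arrays. With diet in wild type livers, 5 of the 6 called mitosis genes (Cdk1, Plk1, Top2a, Cdc20 and Nusap1) are of that kind. Cdkn1a, the inhibitor, did not pass between KO and WT livers on the western diet, at -1.23 ± 0.48 (limma adjusted p = 0.0792), nor with diet in wild type livers, at -0.54 ± 0.48.

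**Figure D4:**
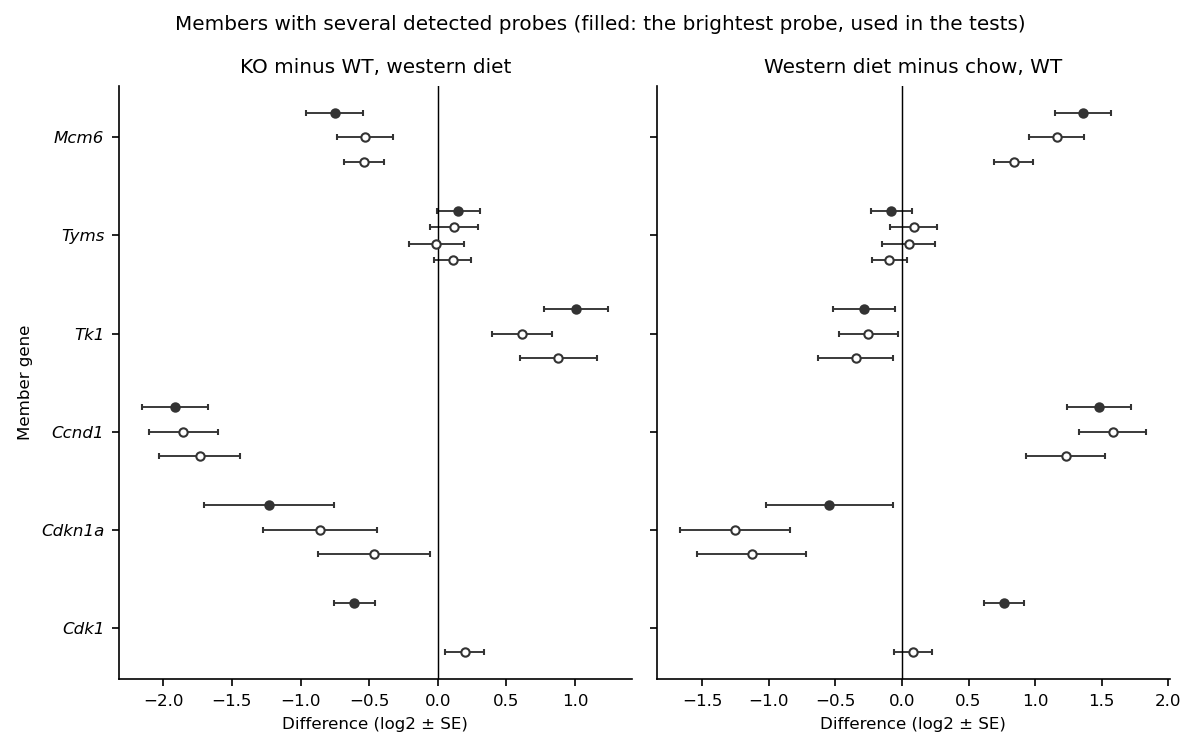
Log2 difference with its SE at each detected probe of the 6 members with more than 1 detected probe, between KO and WT livers on the western diet (left) and between western diet and chow in WT livers (right). The 3 probes of Ccnd1, Mcm6, Tk1 and Cdkn1a point the same way, and the dimmer Cdk1 probe, at 0.20 in the left panel, does not follow the brighter one at -0.61.

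Other genes of the pathway were taken from lists, with log2 differences in parentheses. Which of them passed the detection limit only with the WT western arrays was not examined. Their counts are a description for that reason. Kif23, Incenp, E2f2 and Myc below were not detected in any WT chow liver. Of 52 further replication genes, 33 were tested, with 3 higher (against 8.82% of all genes) and 2 lower (against 11%) in KO than in WT livers on the western diet. Mcm10 (0.85), which helps to activate the helicase, Pole4 (0.75), a subunit of DNA polymerase epsilon, and Gins4 (0.36), a GINS subunit, were higher. Lig1 (-0.68), which joins Okazaki fragments, and Uhrf1 (-0.65), which helps to maintain DNA methylation at the fork, were lower. With diet in wild type livers 4 were higher and 5 lower, against 15.5% and 14.1% of all genes, among them Uhrf1 (0.91), Lig1 (0.46), Pole3 (-0.74), Mcm10 (-0.65), Pole4 (-0.53) and Pold4 (0.39). Mcm10 and Pole3 had a higher diet effect in KO than in WT livers, by 0.98 and 0.79 (limma adjusted p = 0.0153 and 0.0420), 2 of 33 genes against 2.29% of all genes. The median difference over the 33 genes was 0.01 between KO and WT on the western diet.

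Of 50 other mitosis genes, 15 were tested, with 2 higher and 3 lower in KO than in WT livers on the western diet, against 8.82% and 11% of all genes. Spc25 (0.79), of the NDC80 kinetochore complex, and Cenpm (0.75), a centromere protein, were higher. Tubb5 (-1.03), a beta tubulin, Anln (-0.48), an actin-binding protein of the cleavage furrow, and Kif23 (-0.39), a kinesin of the central spindle that partners Racgap1, were lower. With diet in wild type livers 5 were higher and 0 lower, against 15.5% and 14.1% of all genes, namely Mad2l1 (0.82), a spindle checkpoint protein, Cenpa (0.73), the centromeric histone, Kif23, at least 1.11-fold, Stmn1 (0.48), which destabilises microtubules, and Incenp, of the chromosome passenger complex, at least 1.02-fold. With diet in SHP-/- livers Spc25 (0.89), Spc24 (0.61) and Cenpm (0.60) were higher and Tubb5 (-0.69) was lower, against 4.52% and 3.36% of all genes.

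Of 32 listed regulators, 23 were tested, with 2 higher and 1 lower in KO than in WT livers on the western diet, against 8.82% and 11% of all genes, and 4 higher and 2 lower with diet in wild type livers, against 15.5% and 14.1%. On the western diet Ccnd3 (0.69), another D-type cyclin, and Tfdp2 (0.45), a partner of E2F factors, were higher in KO than in WT livers, and Cdkn2c (-0.66), an inhibitor of Cdk4 and Cdk6, was lower. The difference of Ccnd3 was opposite in sign to that of Ccnd1: Ccnd3 averaged 9.68 ± 0.26 in KO western and 8.99 ± 0.10 in WT western livers (log2, SD, n = 4 each). With diet in wild type livers E2f1 (0.46), Cdkn1c (0.54) and E2f2, at least 1.37-fold, were higher. Myc, which was not detected in any WT chow liver, was also called higher (limma adjusted p = 0.0499), while Ccnd3 (-0.45) and Tfdp2 (-0.50) were lower. With diet in SHP-/- livers E2f1 (0.36) was higher. On chow 0 genes of the lists of other replication genes, other mitosis genes, regulators and p53 targets passed between KO and WT livers.

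Of 18 listed p53 targets, 14 were tested, with 3 higher and 6 lower in KO than in WT livers on the western diet, against 8.82% and 11% of all genes. Of the 6 with the largest differences, Phlda3 (-1.27), Zmat3 (-0.74), Plk2 (-0.74), Sesn1 (-0.56) and Ccng1 (-0.49) were lower, and Sesn2 (0.50) was higher. With diet in wild type livers 6 were higher and 3 lower, against 15.5% and 14.1% of all genes, with Phlda3 (1.61), Plk2 (0.96), Zmat3 (0.89) and Ccng1 (0.59) higher and Sesn2 (-0.58) and Trp53inp1 (-0.58) lower. With diet in SHP-/- livers Fas (0.37) was higher, and Cdkn1a was the called member, as given above. The diet effect in KO minus that in WT livers was -1.39 for Phlda3, -0.91 for Zmat3 and -0.66 for Sesn1 (limma adjusted p = 0.00667, 0.0259 and 0.0352), 3 of 14 genes against 4.76% of all genes.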

How the data were processed

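Liver RNA from 16 mice was measured on Illumina BeadChips. The deposited non-normalized table holds, per the file headers, the signal intensity of every probe and a detection p-value for it, which the authors exported from BeadStudio (version not stated) per the submitters' processing notes. The authors' deposited series values are a linear intensity with unstated settings; each array matched its own non-normalized column by rank. The 25697 probes were background-corrected and quantile-normalised with neqc (limma 3.58.1, R 4.3.3, offset 16). Probes detected at p below 0.05 in 4 or more arrays were kept (13196), named by the platform annotation, and the brightest per gene was used (9095 genes). A linear model with a mean per group and eBayes with trend (12 residual degrees of freedom) gave two-sided p, adjusted by Benjamini-Hochberg, with a threshold of 0.05. A gene undetected in a whole group has its fold as a lower bound. The fit was tested on simulated data.

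Every member is accounted for. Members that passed in some comparison are given in every array, and other listed genes are named where they passed, up to 6 per list and comparison by absolute change. Some listed genes beyond this rule are left out. Members, lists and tests were chosen with earlier results of these data known. Replicate numbers were not treated as pairs in the reported fit. The correlation of deviations between same-numbered arrays had a median of -0.01, over 0.1 in 6 of 24 pairs. Between arrays of different number the median was -0.01, over 0.1 in 9 of 72 pairs. These correlations do not decide whether mice were paired. Each array is a single mouse, and slides are not named in the sources used here. The number of arrays limits the precision. Alternatives were other background corrections, normalizations, filters, probe summaries, variance settings, a replicate block and each array left out.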

Additional observations from a re-analysis of the deposited data

Results flagged for a closer look

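In 5 of 92 groups of 4 mice (5.43%) 1 mouse lay far from the other 3, where chance alone gives about 1 in 20. These were Mcm5 in KO western replicate 4 (log2 signal 5.45, nearest 5.21), Tk1 in WT western replicate 4 (7.86, nearest 7.53), Top2a in WT western replicate 2 (5.36, nearest 4.90), Cdc6 in WT chow replicate 4 (5.07, nearest 4.69) and Cdkn1a in WT chow replicate 2 (9.52, nearest 10.22).

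The diet effect differed between the genotypes by the interaction test of limma in Mcm6 (KO minus WT -1.26, adjusted p = 0.0146), Ccnd1 (-1.26, adjusted p = 0.0318) and Prc1 (-0.84, adjusted p = 0.0357). The diet effect was smaller in KO livers in each.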

How the results depend on the processing

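The members called between KO and WT on the western diet numbered 8 in the reported fit, 7 to 11 under 12 alternatives and 6 to 10 with each array left out. With diet in wild type livers the number was 11, 8 to 13 and 10 to 11. On chow it was 0 throughout. With diet in SHP-/- livers the number was 2, and it was 0 with median scaling, the authors' series values or the arrays of the 2 groups alone, 1 with no detection filter, the strict filter, a robust variance prior or array weights, and 0 to 2 with an array left out. For the interaction it was 3, 7 with median scaling, and 1 to 5 with an array left out; the cause was not tested. A replicate block gave 8, 0, 11, 2 and 3 members and so changed no count. The order is KO against WT on western diet, KO against WT on chow, diet in WT, diet in KO and the interaction. No called member reversed its sign under any alternative or with any array left out. Median scaling moved the median of all genes from 0.03 to -0.16 between KO and WT on the western diet, from -0.03 to 0.14 with diet in WT livers and from 0.01 to -0.11 for the interaction, and the changes of members moved with it. The authors' series values plus 32 were added as an alternative after the data were seen. Signals near background limit the folds of the mitosis genes, of which 5 of the 6 called with diet in wild type livers are lower bounds.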
